A study of Homo sapiens with 12 samples.

Results

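The response of TC32 cells to NU7441 was measured as the difference between the 3 arrays of cells given the compound and the 3 arrays of cells given its vehicle. TC32 is an established Ewing sarcoma cell line that carries the EWSR1-FLI1 fusion, and the treated arrays came from cells kept for 48 h in NU7441 at 40 µM. The vehicle arrays came from TC32 cells kept in DMSO at 0.1% (v/v), with the same time of 48 h. These 6 samples are part of a series of 12, in which the other 6 are the same pair of groups in SKNMC, a further Ewing sarcoma line. Of 47319 probes on the Illumina BeadChip, 18070 were detected (p-value under 0.05) on 3 or more of the 6 TC32 arrays. They gave 10628 genes, each read from its brightest detected probe, and all of them entered the tests.

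NU7441 is a small inhibitor of the kinase subunit of DNA-PK, which is encoded by PRKDC and joins broken DNA ends, and at high concentrations it is also known to act on PI3K and mTOR. ATF4 is the transcription factor of the integrated stress response and switches on genes that make, import and load amino acids. SREBP2, encoded by SREBF2, switches on cholesterol synthesis when sterols run low, while LXR receptors sense oxysterols and switch on sterol efflux. Genes of mitosis are transcribed late in the cell cycle, through promoters that often carry a CHR element with the letters TTTGAA. No label gives the replicates as separate cultures, so the spread behind the p-values is that between the samples and may be technical. The vehicle titles carry a mark (2) that the NU7441 titles lack, and if it stands for a separate run, run and treatment cannot be told apart.

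The number of detected probes was 18389, 19523 and 18410 on the vehicle arrays and 18365, 18744 and 18178 on the NU7441 arrays. Mean raw intensity was 197, 197 and 199 under vehicle and 166, 184 and 158 under NU7441. Across genes, the vehicle arrays correlated at 0.982 to 0.993, NU7441 replicates 1 and 2 at 0.987, and NU7441 replicate 3 with them at 0.961 and 0.963. Replicate 3 stood more than 1 log2 unit above the mean of the other two in 268 genes and below it in 172, against 21 and 41 genes for replicate 1 and 14 and 29 for replicate 2. As a check of the line, the Ewing sarcoma markers CD99, NKX2-2, FLI1, STEAP1, LIPI, PRKCB, CCND1, BCL11B and CAV1 passed the filter, 9 of 10 with a probe. None of the 5 endothelial or 4 skeletal muscle markers with a probe did. Of the leukocyte markers 2 of 5 with a probe passed, CD14 and CD68, with a summed log2 level of 11.7 to 12.3 under vehicle and 12.7 to 13.6 under NU7441, and PTPRC, a defining one, did not. CD68 was called higher (1.03), and was not on leaving out any vehicle array or NU7441 replicate 3 (0.65 to 1.12). Of 9 fibroblast markers 5 passed, with a sum of 29.7 to 30.6 under vehicle and 24.3 to 25.7 under NU7441. COL3A1 and PDGFRB were the members of that list called lower, and the part of these markers in other results was not tested.

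Cholesterol synthesis rose and amino acid stress genes fell in TC32 under NU7441, together with genes of mitosis, of the matrix and of the IGF axis. Calls required a log2 fold change of 1 or more in size and, in the moderated test of limma, a p under 0.05 after Benjamini-Hochberg adjustment. By this rule 311 genes were higher (2.93% of those tested) and 485 lower (4.56%), or 7.49% in either direction. At the adjusted p alone 1172 were higher and 1400 lower. Outside the RNAs without a poly(A) tail, 221 genes were higher with a median of 1.17, and 9 of them reached a log2 fold change of 2. The 485 lower genes had a median size of 1.29, and 50 of them reached 2. The groups of arrays did not overlap in any of the 221 and in 477 of the 485, where 19.7% and 21.7% of all genes showed no overlap with NU7441 higher or lower. Of the 134 named genes that were called, 103 kept the call on leaving out any 1 array, and 65 kept it under every alternative, the most losses coming from the settings that shrink folds. In these bulk samples fewer cells of a type and less RNA per cell cannot be told apart. Protein-coding genes made up 212 of the higher and 479 of the lower calls, long non-coding RNAs 5 and 3 of 178 tested, and microRNA genes 0 and 0 of 37.

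The balance between the directions rested on the normalization. Quantile normalization, which sets the median gene near 0, gave 39.1% of the calls as higher. Without between-array normalization the median gene stood at -0.33 with 112 genes higher and 1316 lower. Median scaling put it at -0.30 and gave 117 and 1211. With scaling to the probes detected on all 6 arrays, a choice made after the data were seen, it stood at 0.10 with 377 and 462. Changes below are read relative to the median gene of the quantile-normalized arrays.

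**Figure D1:**
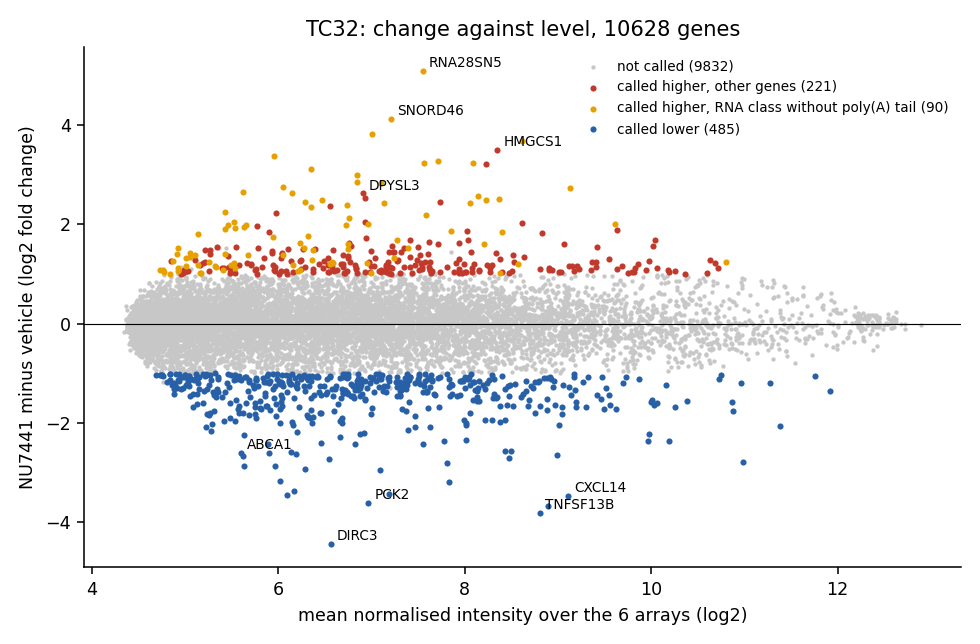
Log2 fold change (NU7441 minus vehicle, vertical) against the mean log2 intensity over the 6 TC32 arrays (horizontal), one point per gene, coloured by call. The 485 genes called lower spread over the whole range of levels, and 90 of the 311 called higher belong to the RNA class without a poly(A) tail.

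The stress response fell first by its regulators. TRIB3, a pseudokinase induced by ATF4, read log2 10.62, 10.73 and 10.80 on the vehicle arrays and 6.84, 7.09 and 7.25 on the NU7441 arrays. All NU7441 arrays lay more than 3 log2 units below all vehicle arrays, and the log2 fold change was -3.66 ± 0.17 (SE, n = 3 and 3, adjusted p = 4.88e-07). ATF5, a transcription factor translated under the same stress, read 10.38, 10.42 and 10.15 under vehicle and 6.86, 7.32 and 8.81 under NU7441. The groups did not overlap, but replicate 3 fell least (log2 fold change -2.65 ± 0.39, adjusted p = 0.000976). ATF3, a factor of the same family, fell by 1.87 on the log2 scale (adjusted p = 0.00105). STC2, a secreted glycoprotein induced by stress, fell by 2.72 ± 0.16 (adjusted p = 2.43e-06). In the whole list of stress transcription factors and effectors 13 of 19 tested genes fell and 0 rose, with a median of -1.24 against -0.002 over all genes. The count includes GDF15 and CHAC1, which were detected on no NU7441 array and passed the filter through the vehicle arrays alone.

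ATF4 itself was less clear. Its brightest probe read 11.81, 11.95 and 11.86 under vehicle and 10.44, 10.42 and 11.16 under NU7441, a log2 fold change of -1.20 ± 0.21 (adjusted p = 0.00255). As the mean of its probes it stood at -0.52 and was not called. A further probe stood at -1.14 (adjusted p = 0.00279 among probes), while the remaining probe rose by 0.79 (adjusted p = 0.0151), so the probes of ATF4 disagreed in direction. DDIT3, which encodes CHOP, stood at -0.88 ± 0.22 (adjusted p = 0.0167), under the fold minimum. Without NU7441 replicate 3 it stood at -1.16 and was called. GDF15, a stress-induced cytokine, was detected on no NU7441 array and was at least 3.67-fold lower (adjusted p = 2.87e-05). A gene detected in 1 group alone passes the filter through that group, so its p is given with the bound and is no support for a change. SESN2, an inhibitor of mTORC1 signalling, fell to -1.06 and was detected on 1 of 3 NU7441 arrays, and leaving out vehicle replicate 3 (-0.95) or NU7441 replicate 2 (-0.95) ended the call. VLDLR at -1.01 lay just inside the fold minimum and PPP1R15A, a phosphatase subunit that ends the stress response, at -0.88 just outside.

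The enzymes that make amino acids fell in nearly every member. Of 15 tested genes 13 fell and 0 rose, with a median of -1.72, and the remaining members were ALDH1L2, which was detected on no NU7441 array (at least 1.52-fold lower), and ALDH18A1 at -0.06. The list's median was -1.91, -1.93 and -1.48 on NU7441 replicates 1, 2 and 3. PCK2, the mitochondrial phosphoenolpyruvate carboxykinase, read 8.74, 8.71 and 8.88 under vehicle and 5.28, 4.82 and 5.37 under NU7441. The groups lay far apart (log2 fold change -3.61 ± 0.18, adjusted p = 8.61e-07). Other detected probes of PCK2 fell less and stood at -1.29 and -1.01. CTH, which makes cysteine from cystathionine, read 8.20, 8.12 and 9.38 under vehicle and 5.69, 5.41 and 5.78 under NU7441. Its vehicle replicate 3 stood more than 1 log2 unit above the other two, and the log2 fold change was -2.94 ± 0.29 (adjusted p = 9.59e-05). CBS, the enzyme before it in the same pathway, fell by 2.35 ± 0.20 (adjusted p = 2.96e-05).

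ASNS, asparagine synthetase, read 11.11, 11.36 and 10.97 under vehicle and 8.17, 8.37 and 9.84 under NU7441. Replicate 3 was again the highest of the NU7441 arrays, still below every vehicle array (log2 fold change -2.35 ± 0.36, adjusted p = 0.00122). The proximal promoter of ASNS is shown because it holds TGATGNAA, the core of the C/EBP-ATF response element bound by ATF4. Those of MARS1 and ATF3, the next members by size of change whose window held it, follow. Each runs 5′ to 3′ along the gene from 250 bases before to 50 bases after the RefSeq start (GRCh38.p14), with the element, on either strand, in capitals. The windows lie at chr7:97872359-97872658 on the minus strand for ASNS, at chr12:57487818-57488117 on the plus strand for MARS1 and at chr1:212565157-212565456 on the plus strand for ATF3. The element began at position -68 in ASNS and -191 in ATF3, both on the gene's strand, and at -4 in MARS1 on the opposite strand.
ASNS: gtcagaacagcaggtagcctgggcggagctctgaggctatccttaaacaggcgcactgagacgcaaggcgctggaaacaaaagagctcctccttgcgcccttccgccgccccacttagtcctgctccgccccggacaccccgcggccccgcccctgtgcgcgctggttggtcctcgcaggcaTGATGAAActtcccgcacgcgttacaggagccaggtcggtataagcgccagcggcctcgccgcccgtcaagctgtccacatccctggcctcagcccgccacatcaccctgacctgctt
MARS1: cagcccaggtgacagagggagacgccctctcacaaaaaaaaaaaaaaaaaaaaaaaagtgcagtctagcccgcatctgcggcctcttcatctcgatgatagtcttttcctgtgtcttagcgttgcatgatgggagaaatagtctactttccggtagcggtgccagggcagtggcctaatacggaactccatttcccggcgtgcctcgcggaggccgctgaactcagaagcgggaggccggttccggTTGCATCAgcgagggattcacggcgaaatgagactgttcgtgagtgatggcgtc
ATF3: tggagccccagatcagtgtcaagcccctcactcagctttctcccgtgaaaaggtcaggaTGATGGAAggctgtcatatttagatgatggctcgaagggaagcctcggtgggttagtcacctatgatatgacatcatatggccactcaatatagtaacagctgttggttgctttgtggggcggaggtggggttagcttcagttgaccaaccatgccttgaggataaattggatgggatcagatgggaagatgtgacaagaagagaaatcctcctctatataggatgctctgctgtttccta

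A promoter sequence was at hand for 8551 of the 10628 genes. TGATGNAA, searched on both strands, was found in 144 of these 8551 windows (1.68%) and in 1003 of all 27305 windows of the table (3.67%). Among genes called lower it was found in 27 of 373 (7.24%), and among those called higher outside the class without a poly(A) tail in 1 of 186 (0.538%). In the lists of amino acid synthesis, cytosolic tRNA synthetases, amino acid transport and stress factors together, 14 of 58 windows of tested members held it (24.1%), and 11 of the 35 of members that fell (31.4%). TRIB3, PCK2, CTH and STC2, the members with the largest falls, had no match within their windows. A match is a run of letters and not a measured binding site.

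Messages of the cytosolic tRNA synthetases, which load amino acids onto tRNA, fell in part. Of 18 tested cytosolic tRNA synthetases 10 fell and 0 rose, with a median of -1.21. Of 15 mitochondrial ones 1 fell, FARS2 at -1.45 ± 0.17 (adjusted p = 0.000244), and the median was -0.09. MARS1, the methionine enzyme, read 8.93, 8.93 and 9.22 under vehicle and 6.44, 6.56 and 7.99 under NU7441. The groups did not overlap, with replicate 3 the highest treated array (log2 fold change -2.03 ± 0.34, adjusted p = 0.00207). GARS1 for glycine fell by 1.75, VARS1 for valine by 1.66 and SARS1 for serine by 1.65. Members not called ranged from LARS1 at -0.77 to RARS1 at 0.41, so the list did not move as one.

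Amino acid importers fell in part, with 6 of 17 lower, 0 higher and a median of -0.54. SLC6A9, a glycine transporter, read 7.10, 7.03 and 7.48 under vehicle and 4.51, 4.29 and 5.01 under NU7441. It was detected on 2 of 3 NU7441 arrays, so its log2 fold change of -2.60 ± 0.21 (adjusted p = 2.83e-05) ends near the detection limit. SLC7A11, the cystine importer, fell by 1.83 and was detected on 1 of 3 NU7441 arrays. SLC7A1 for basic and SLC7A5 for large neutral amino acids fell by 1.37 and 1.33. SLC1A4, which carries alanine and serine, stood on the other side, at 0.82 and not called.

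Chaperones of the endoplasmic reticulum moved less. Of 15 tested, DNAJB9, a cochaperone of BiP, fell to -1.08 and CRELD2, a secreted isomerase, to -1.02, and the median was -0.48. Leaving out vehicle replicate 2 (-0.91) or NU7441 replicate 1 (-0.88) ended the call of CRELD2. Without normalization between arrays 8 of the 15 were lower, with a median of -0.70 relative to all genes. In that setting 1316 of all 10628 genes were lower.

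**Figure D2:**
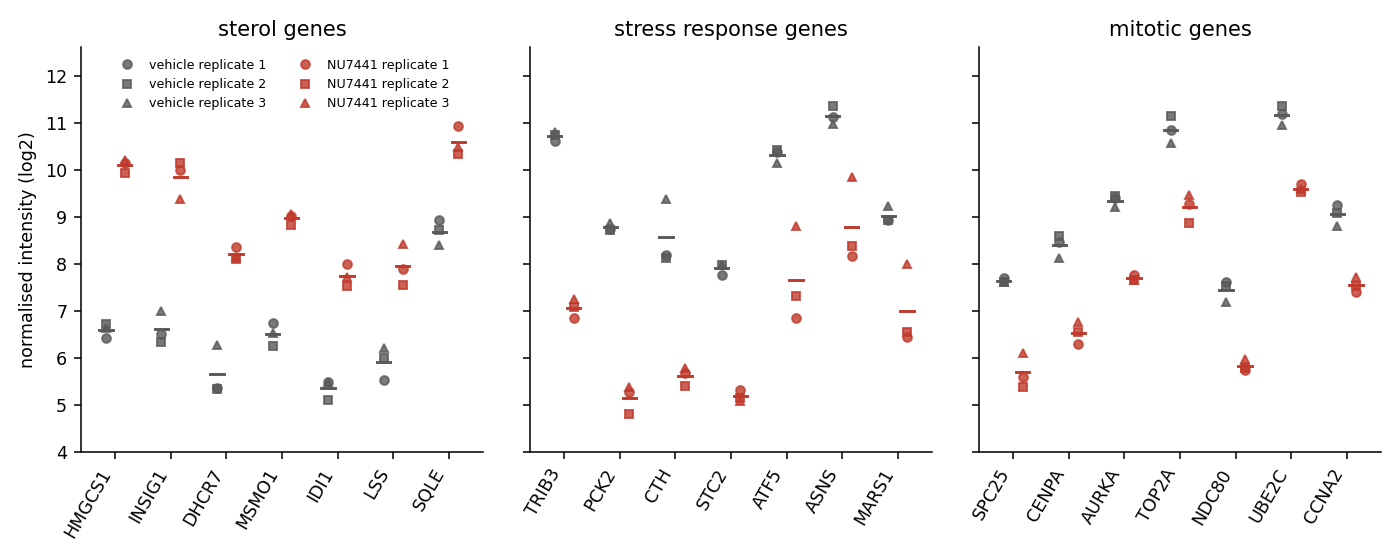
Log2 normalised intensity (vertical) on each of the 6 TC32 arrays for 7 sterol, 7 stress response and 7 mitotic genes, with symbols for the replicates and bars for group means. In every gene shown the vehicle and NU7441 arrays do not overlap. Among the stress response genes NU7441 replicate 3 is the highest treated array for TRIB3, PCK2, CTH, ATF5, ASNS and MARS1.

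Cholesterol synthesis rose along both arms of the pathway. HMGCS1, the synthase at the entry of the mevalonate pathway, read 6.42, 6.73 and 6.65 under vehicle and 10.15, 9.94 and 10.22 under NU7441. The arrays of each group lay close together and far from the other group, and the log2 fold change was 3.50 ± 0.17 (adjusted p = 5.87e-07), an 11.3-fold rise. IDI1, the isopentenyl diphosphate isomerase, read 5.49, 5.12 and 5.50 under vehicle and 7.997, 7.52 and 7.72 under NU7441. The groups did not overlap (log2 fold change 2.38 ± 0.19, adjusted p = 1.93e-05). MVD, the decarboxylase before it, rose by 1.49 from a level detected on 2 of 3 vehicle arrays. ACAT2, which condenses acetyl-CoA, rose by 1.31 and MVK, mevalonate kinase, by 1.07, while PMVK (-0.15), GGPS1 (-0.01) and FDPS (0.09) were not called. In all 5 of 8 tested genes of the mevalonate pathway rose and 0 fell, with a median of 1.19, and 3 rose without between-array normalization.

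In the later steps from squalene to cholesterol 6 of 10 rose and 0 fell, with a median of 1.55. The groups did not overlap in any of the 10, where 19.7% of all genes showed no overlap with NU7441 higher. DHCR7, the reductase of the last step, read 5.37, 5.35 and 6.28 under vehicle and 8.36, 8.09 and 8.15 under NU7441. Vehicle replicate 3 was the highest of its group and still well below the treated arrays (log2 fold change 2.54 ± 0.24, adjusted p = 6.85e-05). MSMO1, a sterol methyl oxidase, rose by 2.46 ± 0.17 (adjusted p = 9.18e-06), while its other probes stood at 2.68 and 0.12. LSS, which closes the sterol rings, rose by 2.04, but its other probe stood at 0.53. SQLE, the squalene epoxidase, rose by 1.90, TM7SF2 by 1.56 and SC5D by 1.54. The members not called were CYP51A1 at 0.48, EBP at 0.69, NSDHL at 0.94 and HSD17B7 at 0.96.

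The sterol sensors split. INSIG1, which holds the SREBP complex in the endoplasmic reticulum and is itself a target of it, read 6.51, 6.35 and 7.01 under vehicle and 10.0, 10.14 and 9.38 under NU7441. The log2 fold change was 3.22 ± 0.24 (adjusted p = 1.18e-05), and the groups did not overlap. A further probe of INSIG1 rose less and stood at 0.84. NPC2, the lysosomal sterol carrier, rose by 1.55 and TMEM97, a sterol-regulated membrane protein, by 1.04. The call of TMEM97 was lost without NU7441 replicate 1 (0.99), without between-array normalization (0.50), with median scaling (0.53) and as the mean of its probes (0.60). SREBF2 was close to the detection limit, detected on 2 arrays of each group, at 0.12 and not called. SREBF1, which encodes the factor more tied to fatty acids, read 6.91, 6.74 and 6.90 under vehicle and 5.48, 5.17 and 5.996 under NU7441. It fell by 1.30 ± 0.21 (adjusted p = 0.00177).

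Some genes that LXR switches on fell beside it. ABCA1, the sterol efflux pump, read 6.95, 7.05 and 6.70 under vehicle and was detected on no NU7441 array, which puts it at least 5.37-fold lower (adjusted p = 3.07e-06). It passed the filter through the vehicle arrays alone, so its p is no support for a change. MYLIP, the ligase that degrades lipoprotein receptors, fell by 1.19 and LPCAT3, a phospholipid acyltransferase, by 1.10, the latter lost without NU7441 replicate 2 (-0.99). ABCG1, whose brightest probe was detected on no NU7441 array, stood at -0.77, NR1H3, which encodes LXR alpha, at -0.32, APOE at 0.28 and SCD at 0.94, none of them called. The count was 3 of 7 lower, ABCA1 among them, and 0 higher. The median of -0.77 is the value of ABCG1, so it too is limited by detection.

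Fatty acid synthesis showed no such shift, with 1 of 16 genes higher, 1 lower and a median of 0.24. Without between-array normalization the list's median was -0.20, where the median gene stood at -0.33. LPIN1, a phosphatidate phosphatase, rose by 1.17, and the malic enzyme ME1 stood at -1.003, just inside the fold minimum. ME1 lost its call on leaving out vehicle replicate 1 (-0.96) or 3 (-0.90) or NU7441 replicate 2 (-0.95) or 3 (-0.97). FASN at 0.93, SCD at 0.94 and ACSS2 at 0.99 lay just outside it. Without vehicle replicate 3 or NU7441 replicate 1 the list had 3 higher genes.

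The sterol response element TCACNCCAC, searched on both strands, was in 95 of 8551 promoter windows of tested genes (1.11%). It was in 1 of 28 windows of the tested members of the 3 sterol lists and in 0 of the 12 windows of members that rose. No sterol promoter is therefore shown, and these letters may still stand outside the windows.

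Genes of mitosis fell, while those of DNA replication largely did not pass. Among mitotic kinases, cyclins and exit factors 18 of 27 were lower and 0 higher, with a median of -1.07. AURKA, a kinase of the spindle poles, read 9.39, 9.44 and 9.20 under vehicle and 7.76, 7.66 and 7.66 under NU7441. The treated arrays were nearly level, well below the vehicle arrays (log2 fold change -1.65 ± 0.16, adjusted p = 6.39e-05). TOP2A, which untangles chromosomes, fell by 1.64, UBE2C, a ubiquitin-conjugating enzyme of the anaphase complex, by 1.56, and cyclin A2 (CCNA2) fell by 1.503. PLK1 at -1.03 lay just inside the fold minimum and PTTG1, securin, at -0.95 just outside.

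In the centromere and kinetochore list 8 of 26 were lower and 0 higher, with a median of -0.62. SPC25 of the NDC80 complex read 7.69, 7.61 and 7.62 under vehicle and 5.60, 5.39 and 6.10 under NU7441. The groups were well apart (log2 fold change -1.94 ± 0.20, adjusted p = 0.000101), and the other 3 subunits of that complex fell as well, NDC80 by 1.61, SPC24 by 1.45 and NUF2 by 1.40. CENPA, the centromeric histone, fell by 1.86 ± 0.19. DSN1 at 0.14 and CENPU at 0.56 were the members above 0. Of 11 mitotic kinesins 3 were lower, KIF2C at -1.21, KIF20A at -1.10 and KIF14 at -1.09. KIF20A lost its call without vehicle replicate 2 (-0.87) and KIF14 without NU7441 replicate 2 (-0.96). Without between-array normalization 25, 16 and 9 genes of these 3 lists were lower, where 1316 of all 10628 genes were.

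The list of DNA replication and S phase had 1 of 35 lower and 0 higher, with a median of 0.04, and 6 lower with a median of -0.41 without between-array normalization. In that setting 1316 of all 10628 genes were lower and the median gene stood at -0.33. RRM2, the small subunit of ribonucleotide reductase, read 8.45, 8.59 and 8.55 under vehicle and 6.88, 7.13 and 8.15 under NU7441. Replicate 3 lay closer to the vehicle arrays than to the other two, and the log2 fold change was -1.14 ± 0.28 (adjusted p = 0.0136). The call was lost on leaving out vehicle replicate 2 (-1.11) or 3 (-1.12) or NU7441 replicate 1 (-0.90) or 2 (-1.02). The list's median was -0.15, -0.14 and 0.21 on NU7441 replicates 1, 2 and 3. The remaining members ranged from TYMS, thymidylate synthase, at -0.80 to SLBP, which binds histone mRNA, at 0.70.

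CDKN1A, the inhibitor of cyclin-dependent kinases also called p21, read 7.30, 7.33 and 6.62 under vehicle and 9.13, 9.20 and 8.56 under NU7441. Replicate 3 was the lowest array of both groups, which did not overlap (log2 fold change 1.88 ± 0.24, adjusted p = 0.000396). It was the single call among 14 tested D cyclins, their kinases and inhibitors, in which CDKN1B stood at -0.80 and CCND1 at -0.01. The letters TTTGAA were in 846 of 8551 promoter windows of tested genes (9.89%), in 4212 of all 27305 windows (15.4%) and in 58 of 373 of the genes called lower (15.5%). They were in 34 of 53 windows of tested members of the 3 mitotic lists (64.2%) and in 15 of the 24 of members that fell (62.5%). Among tested members by list they were in 13 of 22 for the kinetochore, 13 of 20 for kinases and cyclins and 8 of 11 for kinesins.

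**Figure D3:**
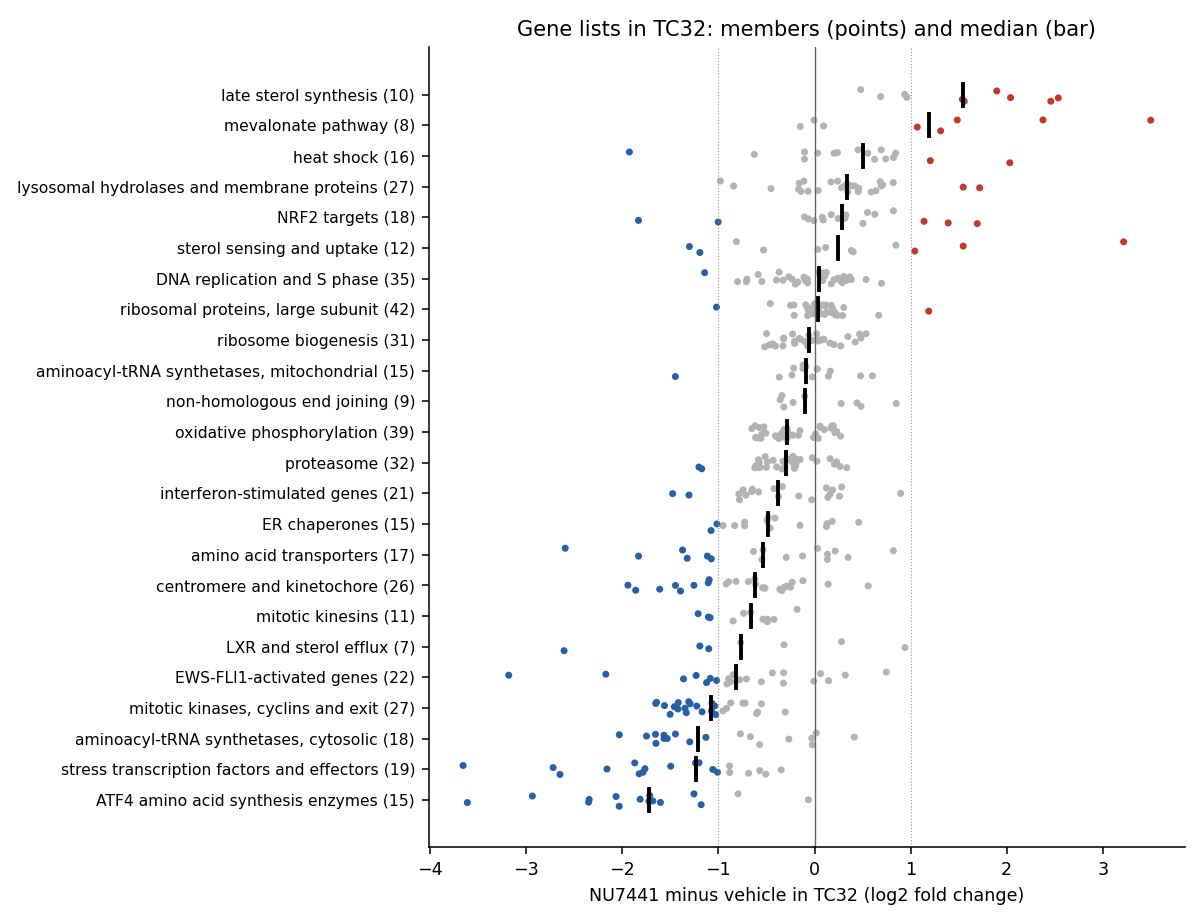
Log2 fold change in TC32 of each tested member (points) of 24 gene lists, with the median as a bar, the fold minimum as dotted lines and the number tested in brackets. Red and blue mark called members. The medians run from -1.72 for amino acid synthesis to 1.55 for late sterol synthesis.

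The target and its repair pathway changed little. PRKDC read 8.02, 7.80 and 7.80 under vehicle and 7.37, 7.72 and 7.56 under NU7441. All treated arrays lay below the vehicle arrays, by less than the fold minimum (-0.32 ± 0.17, adjusted p = 0.187). Its partners in the Ku heterodimer, XRCC5 and XRCC6, stood at -0.36 ± 0.22 and -0.10 ± 0.19 and were not called. Of 9 tested genes of non-homologous end joining 0 were called, the extremes being XRCC5 and DCLRE1C, which encodes Artemis, at 0.85. XRCC2, a gene of homologous recombination, rose by 1.12 (adjusted p = 0.016), which ended without vehicle replicate 3 (0.82), without NU7441 replicate 3 (0.89) and as the mean of its probes (0.58). Of 13 checkpoint genes RAD9A, of a checkpoint clamp, rose by 1.19 and was lost without NU7441 replicate 3 (0.99).

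In the list of PI3K, mTOR and FOXO feedback 2 of 26 were lower and 0 higher, where 4.56% and 2.93% of all genes were. The list's median was 0.05, or -0.19 without between-array normalization, where the median gene stood at -0.33. EIF4EBP1, the translation repressor that mTORC1 controls, read 6.95, 7.27 and 6.66 under vehicle and 5.34, 5.41 and 6.07 under NU7441. The groups did not overlap (log2 fold change -1.35 ± 0.23, adjusted p = 0.00225). IRS1, the insulin receptor substrate, fell by 1.20 and lost its call without vehicle replicate 3 (-0.89). In the BCL2 family 0 of 11 were called, and PMAIP1, a killer protein also known as NOXA, stood furthest from 0 at -0.97.

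Genes of the IGF axis, of chemokines and of the matrix also fell. DIRC3, a long non-coding RNA next to IGFBP5, read 8.88, 8.87 and 8.58 under vehicle and 4.20, 4.49 and 4.37 under NU7441. It was detected on 1 of 3 NU7441 arrays and had the largest fall of all called genes (-4.43 ± 0.17, adjusted p = 2.13e-07). IGFBP5 itself, which binds IGF in the matrix, read 11.05, 11.11 and 11.12 under vehicle and 9.21, 9.33 and 8.07 under NU7441. Replicate 3 fell furthest here, and the log2 fold change was -2.23 ± 0.28 (adjusted p = 0.00041, but 0.0602 with all 12 arrays in one model). PAPPA, the protease that frees IGF from binding proteins, fell by 3.18 ± 0.18 (adjusted p = 2.43e-06). With IGFBP7 at -1.58 and STC2, an inhibitor of PAPPA, 5 of 14 tested genes of the IGF axis were lower and 0 higher, with a median of -0.81.

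TNFSF13B, the B cell survival factor BAFF, read 10.69, 10.80 and 10.63 under vehicle and 6.88, 6.90 and 6.91 under NU7441. The treated arrays were nearly level, far below the vehicle arrays (log2 fold change -3.81 ± 0.15, adjusted p = 2.13e-07), a 14.05-fold fall. CXCL14, a chemokine, read 10.97, 11.19 and 10.38 under vehicle and 7.36, 7.40 and 7.37 under NU7441. The spread lay in the vehicle arrays, and the log2 fold change was -3.47 ± 0.21 (adjusted p = 2.68e-06). ACKR3, a scavenging chemokine receptor, fell by 1.65 and CXCL16 by 1.47, the latter detected on 2 of 3 NU7441 arrays. With CCL2 at -1.01, detected on 1 of 3, 5 of 10 tested chemokines and cytokines were lower and 0 higher, while CXCL8 stood at -0.12, CXCL12 at -0.40 and CCL5 at 0.65.

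COL3A1, a fibrillar collagen, read 9.10, 8.72 and 8.89 under vehicle and 5.86, 5.21 and 5.34 under NU7441. The groups were far apart (log2 fold change -3.44 ± 0.20, adjusted p = 2.43e-06), while COL1A1 at -0.34 and COL1A2 at -0.18, each detected on 1 of 3 NU7441 arrays, were not called. COL5A2 stood at -1.05 and lost its call without vehicle replicate 2 (-0.9971) or 3 (-1.03) or NU7441 replicate 3 (-0.72). In the list of matricellular, TGF-beta and YAP targets 5 of 18 were lower, and 3 without vehicle replicate 3. TNC, tenascin C, fell by 1.63, the smooth muscle actin ACTA2 by 1.55 and TGFBI by 1.17. A further probe of TNC stood at -0.75. With all 12 arrays in one model TNC stood at -0.73, under the fold minimum, and TGFBI at -1.14 with an adjusted p of 0.499, so neither was called there. CCN2, a matricellular growth factor, read 8.07, 7.81 and 10.14 under vehicle and 6.27, 5.80 and 7.69 under NU7441. Replicate 3 was high in both groups, and CCN2 at -2.08 lost its call without vehicle replicate 3 (-1.33) or NU7441 replicate 1 (-1.94) or 2 (-1.69), and with all 12 arrays in one model (-2.06, adjusted p = 0.0878).

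RGS4, which shortens G protein signals, and DKK1, a Wnt antagonist, also varied under vehicle. RGS4 read 7.36, 7.13 and 9.09 under vehicle and 4.63, 4.59 and 4.24 under NU7441, with a log2 fold change of -3.38 ± 0.41 (detected on 2 of 3 NU7441 arrays, adjusted p = 0.000294). DKK1 read 6.75, 6.73 and 9.30 under vehicle and 4.41, 4.38 and 4.52 under NU7441, with a log2 fold change of -3.16 ± 0.53 (detected on 1 of 3, adjusted p = 0.00218). In both, vehicle replicate 3 stood far above the other two, and the groups did not overlap. The phosphodiesterase PDE7B fell by 3.45 (detected on 1 of 3 NU7441 arrays), and TNFAIP6, which crosslinks hyaluronan, by 2.81. CES5A, a carboxylesterase, fell by 2.93 and PRAMEF1, of the PRAME family with near-identical copies, by 2.86 (detected on 2 of 3).

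The lists of genes tied to the EWSR1-FLI1 fusion moved the same way whether the fusion is known to raise or to lower them. Of 22 tested genes that the fusion activates 7 were lower and 0 higher, with a median of -0.81, and of 17 that it represses 6 were lower and 1, CDKN1A, higher, with a median of -0.52. Among the activated genes MYOM2, a sarcomere protein, fell by 2.17, HOXD13 by 1.36 and PRKCB, a protein kinase C, by 1.23, beside PAPPA. LIPI, a lipase used as a marker of Ewing sarcoma, stood at -1.02 and lost its call on leaving out vehicle replicate 1 (-0.92) or 3 (-0.97) or NU7441 replicate 1 (-0.97) or 2 (-0.88). FLI1 stood at 0.02 ± 0.17 and EWSR1 at 0.63 ± 0.16 (adjusted p = 0.0149), under the fold minimum. NKX2-2, a fusion target, stood at 0.75, and CD99, the surface marker, at 0.09. FLI1 and CD99 turned below 0 without between-array normalization (-0.32 and -0.45), where the median gene stood at -0.33.

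Genes outside sterol synthesis also rose. DPYSL3, a cytoskeletal protein of growing axons, read 5.67, 6.04 and 5.09 under vehicle and 8.56, 9.12 and 6.99 under NU7441. Replicate 3 was the lowest array of both groups, which did not overlap (log2 fold change 2.62 ± 0.44, adjusted p = 0.00215). INA, a neuronal intermediate filament, read 4.70, 4.69 and 5.19 under vehicle and 7.55, 7.28 and 6.46 under NU7441, a rise of 2.24 ± 0.27 (adjusted p = 0.000268). TUBB3, the neuronal tubulin, rose by 1.09 and lost its call without vehicle replicate 1 (0.90) or 2 (0.96). The neural list as a whole did not follow, with 1 of 12 higher and 2 lower, NTRK2, the receptor of BDNF, and GAP43 of the growth cone. NTRK2 was detected on no NU7441 array and was at least 3.23-fold lower. GAP43 was also detected on none of them and was at least 1.91-fold lower, and it lost its call without vehicle replicate 1 or 2 or NU7441 replicate 2.

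KLF2, a transcription factor, read 8.11, 7.90 and 7.71 under vehicle and 9.83, 10.08 and 9.32 under NU7441. The groups did not overlap (log2 fold change 1.83 ± 0.21, adjusted p = 0.000227). HCG22, a transcript of the HLA region, rose by 1.86 ± 0.17 (adjusted p = 5.01e-05). ATP2B1-AS1 read 4.73, 4.77 and 4.86 under vehicle and 5.79, 5.80 and 8.69 under NU7441. Its rise of 1.98 ± 0.60 (adjusted p = 0.0349) was driven most by replicate 3, and the call was lost on leaving out any vehicle array (1.93 to 1.98). It is antisense to ATP2B1, and the probes give no strand here beyond their annotation.

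The lysosome, autophagy, heat shock and NRF2 lists each had a few higher genes, where 2.93% of all genes were higher. NEU1, the lysosomal sialidase, read 6.09, 6.13 and 6.02 under vehicle and 7.91, 7.65 and 7.83 under NU7441. The groups were tight and apart (log2 fold change 1.72 ± 0.16, adjusted p = 5.16e-05), and NEU1 and NPC2 were the 2 higher genes of 27, with 0 lower. SQSTM1, the autophagy receptor p62, rose by 1.61 ± 0.16, ULK1, the kinase that starts autophagy, by 1.20 and WIPI2 by 1.07, while ATG7, the enzyme that lipidates the LC3 family, fell by 1.06. WIPI2 lost its call without vehicle replicate 3 (0.97) or NU7441 replicate 2 (0.98), and ATG7 without NU7441 replicate 1 (-0.94). The medians of these 2 lists were 0.34 and 0.16. Without between-array normalization they were -0.17 and -0.30, where the median gene stood at -0.33.

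HSPA1B, an inducible chaperone, read 8.03, 8.09 and 6.67 under vehicle and 9.40, 9.78 and 9.70 under NU7441. Vehicle replicate 3 was low, and the rise was 2.03 ± 0.32 (adjusted p = 0.00161). HSPA1A rose by 1.21 and lost its call without vehicle replicate 3 (0.90). The 2 copies are near-identical, so their separate signals are uncertain. CRYAB, a small heat shock protein, fell by 1.93 ± 0.20 (adjusted p = 0.000128, but 0.112 with all 12 arrays in one model). Of 18 targets of NRF2, the oxidative stress factor, NQO1 rose by 1.69 (not called with all 12 arrays in one model, adjusted p = 0.0889), TXNRD1, thioredoxin reductase, by 1.39 and SRXN1, sulfiredoxin, by 1.14, the last lost without NU7441 replicate 3 (0.99). The 2 lower members were SLC7A11 and ME1, which are also on the lists of amino acid transport and fatty acid synthesis.

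Core machinery gave few calls, where 2.93% of all genes were higher and 4.56% lower. In the large ribosomal subunit 1 of 42 genes was higher and 1 lower, RPL28 at 1.19 and RPL36A at -1.02. RPL28 lost its call on leaving out any array other than NU7441 replicate 3 (0.95 to 1.24), and RPL36A without NU7441 replicate 3 (-0.95). In the small subunit RPS7 fell by 1.19 ± 0.16 (adjusted p = 0.00055) and the other 25 of 26 were not called. Ribosome biogenesis had 0 calls of 31 and oxidative phosphorylation 0 of 39, with medians of -0.06 and -0.29. For these 39 genes the groups of arrays did not overlap in 17, all with NU7441 lower, where 21.7% of all genes showed this. The proteasome list had 2 of 32 lower, both of the form induced by interferon, PSMB8 at -1.20 and PSME2 at -1.17. Among interferon-stimulated genes 2 of 21 were lower, IFI35 at -1.48 and IFITM1 at -1.31, with a median of -0.38.

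The remaining lists gave 1 to 3 calls each or none, where 7.49% of all genes were called in either direction. Of 27 translation factors EIF5, which starts translation, rose by 1.26 and EIF4EBP1 fell, and EIF5 stood at 0.39 and was not called as the mean of its probes. Of 26 genes of glycolysis and hypoxia P4HA2, a prolyl hydroxylase of collagen, stood at -1.96 and lost its call without vehicle replicate 1 (-1.65) or 2 (-1.54). MT1X was the single call of 6 metallothioneins, at -1.68. Of 11 Wnt antagonists and targets NKD2 rose by 1.10 and DKK1 and WNT5A were lower, WNT5A at -1.12. NKD2 lost its call without vehicle replicate 3 (0.77) or NU7441 replicate 3 (0.99), and WNT5A without vehicle replicate 3 (-0.98). Of 21 early genes and feedback inhibitors of MAPK signalling IER3 rose by 1.44 and ATF3 fell. In the MYC network, of 17 tested, MXD4, a MAX partner, rose by 1.48 and TXNIP, which binds thioredoxin, stood at -1.21. TXNIP lost its call without vehicle replicate 2 (-1.17) or 3 (-1.21) or NU7441 replicate 3 (-0.81). PSMB8 was the single call of 11 genes of MHC class I presentation. BCL3 was that of 8 NF-kB genes, at -1.09, and ended without vehicle replicate 1 (-1.01) or 2 (-0.995) or NU7441 replicate 3 (-0.78). ITGA5 was that of 10 integrins, at -1.05, and ended without vehicle replicate 3 (-0.88) or NU7441 replicate 1 (-0.90) or 2 (-0.99). Of the epithelial markers 2 of 6 passed the filter and 0 were called.

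Some rises that were called rested on the normalization. With arrays not normalized to each other, and then with scaling to the median, ACAT2 (0.77 and 0.80), LPIN1 (0.62 and 0.65), XRCC2 (0.61 and 0.64), RAD9A (0.87 and 0.90) and RPL28 (0.76 and 0.79) were not called. The same held for ULK1 (0.64 and 0.67), WIPI2 (0.72 and 0.75), HSPA1A (0.79 and 0.82), TXNRD1 (0.83 and 0.86), SRXN1 (0.72 and 0.75) and TUBB3 (0.58 and 0.61). It also held for EIF5 (0.77 and 0.80), IER3 (0.96 and 0.98) and NKD2 (0.83 and 0.86), while NPC2 lost its call in the first of these settings (0.98). DDIT3, not called above, was called in both settings (-1.45 and -1.42). With no filter on dim probes the adjusted p rose past the threshold for SPC24 (0.0511), RNU1-3 (0.0546), H2BC5 (0.0775) and RRM2 (0.0778), and with array weights IRS1 and RPL36A, each at -0.96, were not called.

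RNAs that mostly lack a poly(A) tail were higher as a class. Of 193 tested small nucleolar, small Cajal body, spliceosomal, ribosomal and related RNAs 90 were higher (46.6%) and 0 lower, with a median of 0.93. SNORD46, a C/D box guide of RNA methylation, read 5.26, 5.35 and 4.84 under vehicle and 9.36, 9.16 and 9.27 under NU7441. The groups were tight and apart (log2 fold change 4.11 ± 0.18, adjusted p = 3.85e-07). SNORA12, an H/ACA guide of pseudouridylation, rose by 3.82 ± 0.28, and SNORD13, which acts in ribosomal RNA acetylation, by 3.67 ± 0.22. By family 27 of 82 SNORD, 33 of 70 SNORA, 11 of 17 SCARNA and 11 of 11 RNU or RNVU genes were higher. Of 16 host genes in whose introns such RNAs lie 0 were called in limma's test, with a median of 0.24. Without between-array normalization their median was -0.08, where the median gene stood at -0.33.

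Within this class NU7441 replicate 3 differed from replicates 1 and 2. The class took 0.438%, 0.440% and 0.414% of the summed raw intensity on the vehicle arrays and 0.642%, 0.652% and 1.06% on the NU7441 arrays. The U1 gene RNU1-3 read 6.16, 6.11 and 5.98 under vehicle and 8.46, 8.24 and 11.35 under NU7441. The rise of 3.27 ± 0.62 (adjusted p = 0.00406) was present on all treated arrays and much larger on replicate 3. The 11 spliceosomal genes had a median of 1.81 over replicates 1 and 2 and of 3.81 on replicate 3, and the near-identical U1 copies among them cannot be told apart. The 17 SCARNA genes went the other way, with 1.79 and 0.91, and 8 of them were lower on replicate 3 by more than 1 log2 unit.

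RNA28SN5, the 28S ribosomal RNA, read 5.05, 4.85 and 5.11 under vehicle and 8.24, 9.33 and 12.71 under NU7441 (log2 fold change 5.09 ± 0.82, adjusted p = 0.00179). A further 28S probe stood at 2.88 and did not pass the threshold (adjusted p = 0.106 among probes). RNA18SN5 read 7.38, 7.76 and 6.27 under vehicle and 6.52, 7.84 and 11.38 under NU7441. The groups overlapped for the 18S probe, which was not called (1.44 ± 0.92, adjusted p = 0.286). Replication-dependent histone genes, whose messages also lack a poly(A) tail, followed replicate 3, with a list median of -0.05, -0.10 and 1.38 on the 3 treated arrays. H2BC5 was the single call of 18, at 1.43 ± 0.33 (adjusted p = 0.0108), and was lost without vehicle replicate 3 (1.25). H2AC17 read 4.68, 4.88 and 4.48 under vehicle and 5.17, 5.27 and 8.17 under NU7441. It was not called (1.53 ± 0.61, adjusted p = 0.0946). Leaving out NU7441 replicate 1 (2.07) made it a call. So did arrays not normalized to each other (1.26), median scaling (1.29) and scaling to the probes detected on all 6 arrays (1.69). The part of array quality in these values was not tested.

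**Figure D4:**
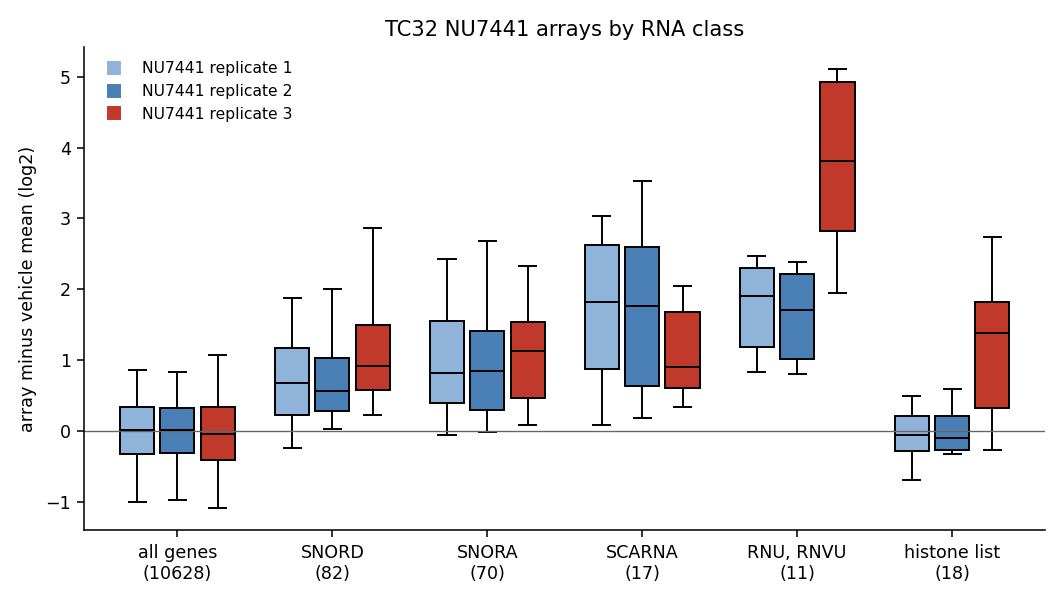
Log2 intensity of each NU7441 array minus the vehicle mean (vertical), by RNA class, as boxes over genes (quartiles, median line, whiskers from the 5th to the 95th percentile, number of genes in brackets). Replicate 3 stands apart in the spliceosomal genes (median 3.81 on replicate 3, 1.81 over replicates 1 and 2) and in the histone list (1.38 against -0.05 and -0.10).

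Some genes went from detected to undetected. Of the 10628 genes, 152 were detected by any probe on all 3 vehicle arrays and on no NU7441 array, and 75 the other way round. These genes passed the filter through the group where they were detected, so nothing is read from the 27 and 14 of them that were called, which also count among the calls above. A bound was taken as the mean of the detected group against the lowest detected signal, or the gene's own if higher, on each array of the other group. AADACL4, of the arylacetamide deacetylase family, read 6.95, 7.09 and 7.15 under vehicle and was at least 6.005-fold lower (adjusted p = 1.2e-06). CPED1 was at least 5.56-fold lower, CEACAM1, an adhesion molecule, 3.53-fold and MMP10, stromelysin 2, 3.47-fold. In the other direction SNORA79 was at least 9.09-fold higher, SCARNA14 at least 5.59-fold and SNORA2B at least 4.29-fold.

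The response of TC32 was then set against that of SKNMC in a model of all 12 arrays, to ask where it differed. Over 12171 genes the log2 fold change in TC32 minus that in SKNMC passed the same threshold in 161 upward (1.32%) and 63 downward (0.518%). SKNMC NU7441 replicates 2 and 3 stand apart from replicate 1, and without them 68 and 33 passed, of which 52 and 19 were called both ways. That leaves 1 SKNMC NU7441 array, assumed to vary like the other groups, and the arrays kept are shared by both fits, so a call in both is no independent support. Single arrays moved these counts widely, to 519 and 251 without SKNMC NU7441 replicate 1, 297 and 165 without TC32 NU7441 replicate 3 and 69 and 28 without SKNMC vehicle replicate 2. Without between-array normalization 77 and 240 passed, so the balance of directions rested on it here too. In sterol synthesis 7 of 18 tested genes were larger in TC32 and 0 smaller, and 4 of them, HMGCS1, IDI1, DHCR7 and MSMO1, called in both fits. HMGCS1 rose by 3.44 in TC32 and 1.55 in SKNMC, a difference of 1.90 ± 0.18 (adjusted p = 9.41e-05, and 1.94 without the 2 arrays).

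DHCR7 rose by 2.53 in TC32 and stood at 0.09 in SKNMC, a difference of 2.43 ± 0.30 (adjusted p = 0.000897, and 2.25 without the 2 arrays). On the common scale DHCR7 read 5.36 to 6.30 in TC32 vehicle and 7.14 to 7.24 in SKNMC vehicle, and 8.10 to 8.36 and 7.13 to 7.47 under NU7441. The TC32 arrays thus lay below the SKNMC arrays under vehicle and above them under NU7441. INSIG1 differed by 2.06 ± 0.29 (2.12 without the 2 arrays) and KLF2 by 1.80 ± 0.27 (1.60), where KLF2 stood at -0.001 in SKNMC. CDKN1A differed by 1.25 (adjusted p = 0.0464) with all arrays and by 0.97 (adjusted p = 0.307) without the 2, so its difference was not called in both fits.

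For several genes the detection limit bounds the difference. ABCA1, GDF15 and CEACAM1 were detected on no TC32 NU7441 array, and in SKNMC vehicle they read 4.73 to 5.11, 4.53 to 4.91 and 4.32 to 4.54, near the level at which probes were no longer detected. Their fitted differences of -1.90, -1.77 and -1.71 are therefore not measured on either side. DIRC3, which ends near that level in TC32, stood at -4.42 in TC32 and -2.44 in SKNMC (difference -1.98 ± 0.28, adjusted p = 0.00241) and COL3A1 at -3.41 and -1.64 (difference -1.77 ± 0.29, adjusted p = 0.00546). The stress response was not called as different in its leading genes, PCK2 (difference 0.15 ± 0.33), TRIB3 (0.13 ± 0.38) and ASNS (-0.15 ± 0.44). Of 19 stress factors GDF15 was the single call. Of 17 amino acid transporters 3 were called with a difference above 0, which includes smaller falls in TC32. SLC1A4 stood at 0.81 in TC32 and -0.98 in SKNMC (difference 1.79 ± 0.26, adjusted p = 0.0024), SLC7A1 at -1.37 and -2.58 (difference 1.21 ± 0.24, adjusted p = 0.0165) and SLC38A1 at -0.62 and -1.71 (difference 1.09 ± 0.21, adjusted p = 0.0173). SLC38A1 was not called without the 2 arrays. In the 3 mitotic lists 0 of 64 differences were called, with medians of -0.43 for kinases and cyclins, -0.36 for the kinetochore and -0.45 for kinesins.

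**Figure D5:**
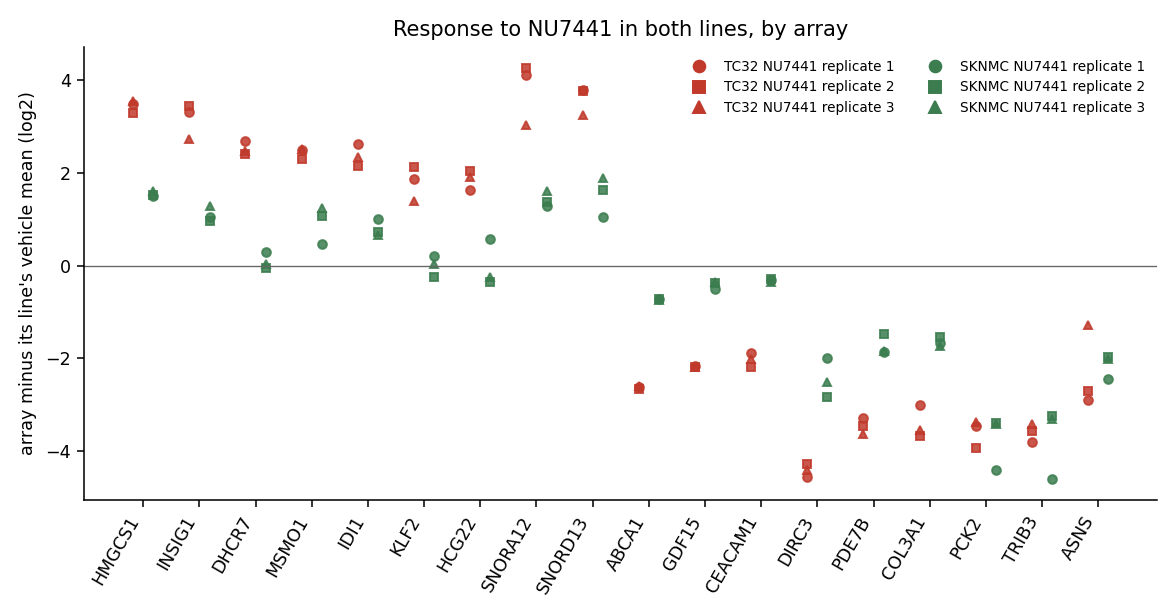
Log2 intensity of each NU7441 array minus the vehicle mean of its own line (vertical) for 18 genes, in TC32 (red) and SKNMC (green), normalised together over 12 arrays. For HMGCS1, INSIG1, DHCR7, MSMO1, IDI1, KLF2, HCG22, SNORA12 and SNORD13 every TC32 array lies above every SKNMC array, and for PCK2 and TRIB3 the lines overlap.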

How the data were processed

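Illumina BeadChip intensities and their detection p-values were taken from the table the authors deposited, in which, per the file headers, each array has an intensity and a detection p-value column, with 0 columns of sample values left unused. GenomeStudio, lumi and R 3.0.2 are listed in the submitters' processing notes. The deposited log2 table is their processed version of the same arrays (median 6.32 in each TC32 column), and how it was transformed is not stated in the sources used here. It served as an alternative. Its log2 fold changes had a slope of 0.638 on those used here (r = 0.961 across genes, which are not independent replicates).

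The intensities of the 6 TC32 arrays were background-corrected by normexp from the detection p-values with an offset of 16, put on the log2 scale and quantile normalized in limma 3.58.1 (R 4.3.3). Probes needed a detection p-value under 0.05 on at least 3 arrays, 14126 of the passing probes had a gene symbol, and the brightest probe stood for each gene. Of 2789 genes with several detected probes 11 had probes in opposite directions, each with an adjusted p under 0.05 in limma's test, whatever the fold. Differences were tested by the two-sided moderated test of limma with Benjamini-Hochberg adjustment over all genes. Differences between the lines used all 12 arrays, normalized together. The method was tested on simulated data. The number of arrays limits the precision, and no pair of arrays was identical. Deviations of arrays with the same replicate number correlated at 0.0014, 0.068 and -0.071, so the numbers were not taken as pairs.

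The comparison, its 57 lists (6 of them of cell type markers) and the tests were chosen with earlier results of these data known. Named genes were the largest changes over all genes, in each list, among RNAs without a poly(A) tail, among genes detected in 1 group, between the lines and between the NU7441 arrays, with a preset list. Those over all genes were taken outside that RNA class, among called genes whose groups of arrays did not overlap. For them the lack of overlap follows from the choice and is no support. Other list members are named to complete a count or to show values near the fold minimum, and were chosen after their values were seen. Some listed genes, 1 list and the calls of some others are not reported here. Promoter sequences are RefSeq's (GRCh38.p14). Alternatives covered normalization, background, offset, filter, probe choice, variance prior, array weights, replicate block and leaving out arrays.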

Additional observations from a re-analysis of the deposited data

Results flagged for a closer look

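The results here differed between the lines in a test of the difference itself, the log2 fold change in TC32 minus that in SKNMC, with all 12 arrays and again without SKNMC NU7441 replicates 2 and 3. The latter leaves 1 SKNMC NU7441 array, assumed to vary like the other groups, and is no independent support. Among sterol genes the difference was 1.90 for HMGCS1, 2.06 for INSIG1, 2.43 for DHCR7, 1.499 for MSMO1 and 1.58 for IDI1, larger in TC32. It was 1.80 for KLF2 and 1.86 for HCG22, both near 0 in SKNMC (-0.001 and -0.008). SNORA12 differed by 2.38 and SNORD13 by 2.09, with 3.80 and 3.61 in TC32 and 1.42 and 1.52 in SKNMC. The difference was -1.98 for DIRC3, -1.74 for PDE7B and -1.77 for COL3A1. PDE7B ended near the detection limit in both lines and DIRC3 in TC32, so these values also reflect the level under vehicle. GDF15 (-1.77), ABCA1 (-1.90) and CEACAM1 (-1.71) were not detected on any TC32 NU7441 array and were close to the detection limit in SKNMC vehicle, so their differences are not measured on either side.

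In other genes SKNMC carried the difference. The near-identical copies MBD3L3 (3.24), MBD3L4 (3.22) and MBD3L2 (3.19), whose signals cannot be told apart, stood at -3.51, -3.40 and -3.33 in SKNMC and at -0.27, -0.18 and -0.14 in TC32. BTBD17 (2.86) and TRIM51 (2.53) likewise stood at 0.22 and 0.05 in TC32 and at -2.64 and -2.49 in SKNMC. These 5 genes lay at or near the detection limit in TC32 vehicle, where a fall could hardly be measured. THEM6 differed by 2.20, with 1.00 in TC32 and -1.20 in SKNMC. COL7A1 differed by -3.05 and CXCL10 by -1.78, with 0.72 and 0.08 in TC32 and 3.77 and 1.86 in SKNMC, and CXCL10 in TC32 and COL7A1 in TC32 vehicle were near that limit.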

How the results depend on the processing

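The counts of 311 higher and 485 lower genes became 117 and 1211 with median scaling, 112 and 1316 without between-array normalization, 92 and 162 without background correction, 138 and 239 with an offset of 50, 90 and 163 in the submitters' log2 table, and 1004 and 1218 at a fold minimum of 1.5. Leaving out each TC32 array gave 229 to 380 higher and 450 to 526 lower. The counts of 161 larger and 63 smaller responses than in SKNMC became 68 and 33 without SKNMC NU7441 replicates 2 and 3 (1 array left, assumed to vary like the others), 83 and 209 with median scaling, 77 and 240 without between-array normalization and 587 and 350 with array weights. Leaving out 1 array gave 69 to 519 and 28 to 251, and leaving out TC32 NU7441 replicate 3 with SKNMC NU7441 replicates 2 and 3, an alternative added after seeing the data, gave 232 and 168. The cause was not tested. With the replicate block, 289 genes were higher and 481 lower, and 1 named call was lost. The genes that changed sign were not called. These were, with arrays not normalized to each other and then with median scaling, FLI1 (-0.32 and -0.29), CD99 (-0.45 and -0.42) and MYC (-0.19 and -0.16). With scaling to probes detected on all arrays they were CD99 (-0.0142), MDM2 (0.26), CCND1 (0.15) and GAPDH (0.0099). With array weights XRCC6 stood at 0.0764 and FLI1 at -0.0708. Leaving out 1 array gave -0.198 to 0.0874 for XRCC6, -0.0722 to 0.136 for FLI1, -0.0387 to 0.230 for CD99 and -0.167 to 0.0975 for CCND1. Signal near background limits the folds of genes detected on few arrays of a group.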
